A study of Mus musculus with 10 samples.

Results

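The nuclear genes for respiratory complexes II to V and for cytochrome c were taken as every protein-coding entry named Sdha to Sdhd, Uqcr followed by any letters, Cyc1, Cycs, Cox4 to Cox8 followed by a letter, or Atp5 followed by any letters. The rule found 52 of the 78317 entries in the deposited table, 4 for complex II, 9 for complex III, 19 for complex IV, 19 for complex V and 1 for cytochrome c. They were compared between 5 libraries of wild-type (WT) mice injected with control AAV, an adeno-associated virus used as a gene carrier, numbered 3, 4, 5, 7 and 9, and 5 of WT mice injected with an AAV designed to overexpress miR-130a-3p, numbered 13, 14, 15, 17 and 18. All tissue was a punch of the medial prefrontal cortex of mixed cell types, and RNA was sequenced after poly(A) selection. The labels used here give no age, sex, promoter, serotype or time after injection, and do not say whether each library is a separate mouse, so the p-values rest on the variation among libraries, which may be partly technical. Levels are TPM, transcript abundances that were scaled per library, a unit that corrects for transcript length and gives every library the same sum.

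Complexes II to V sit in the inner mitochondrial membrane. Complex II passes electrons from succinate to ubiquinone, complex III passes them from ubiquinol to cytochrome c, and complex IV passes them from cytochrome c to oxygen. Complexes III and IV pump protons, and complex V (ATP synthase) lets protons flow back to make ATP. Neurons use much of this ATP for ion pumping and synaptic transmission. Complex II is encoded wholly in the nucleus, whereas complexes III, IV and V each also hold subunits made from mitochondrial DNA.

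With miR-130a 21 of the 47 members that could be tested rose and 0 fell, where 2.19% of all tested genes rose and 11.3% fell. Those that rose were small subunits around the core of complex III, cytochrome c, matrix and membrane subunits of complex IV, and subunits of the rotor, c ring, stalk and membrane part of complex V with its inhibitor. The succinate dehydrogenase subunits, the redox and core proteins of complex III and the catalytic head of complex V did not pass the test. Nor did other members, among them the small subunits Uqcrq, Cox7c, Cox6b1, Atp5me, Atp5mf and Atp5mj. A gene was tested where its mean over the 10 libraries reached 1 TPM, and rose or fell where its adjusted p was under 0.05. Differences are log2 fold changes of TPM + 1 from limma, miR-130a minus control, with p-values adjusted over all 15680 tested genes by the Benjamini-Hochberg method. At an unadjusted p under 0.05, limma had 31 members higher and 0 lower, where 998 of all 15680 tested genes were higher and 3457 lower. In 16 of the 47 all 5 miR-130a libraries lay above all 5 controls, which held for 1.85% of all tested genes. The fold change was positive for 44 of the 47 (93.6%), against 36.4% of all tested genes. The median over members was 0.38 and the median over all tested genes −0.095. Counted by complex, 0 of 4 members rose in complex II, 4 of 9 in complex III, 6 of 15 in complex IV and 10 of 18 in complex V, and Cycs rose as well.

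**Figure D1:**
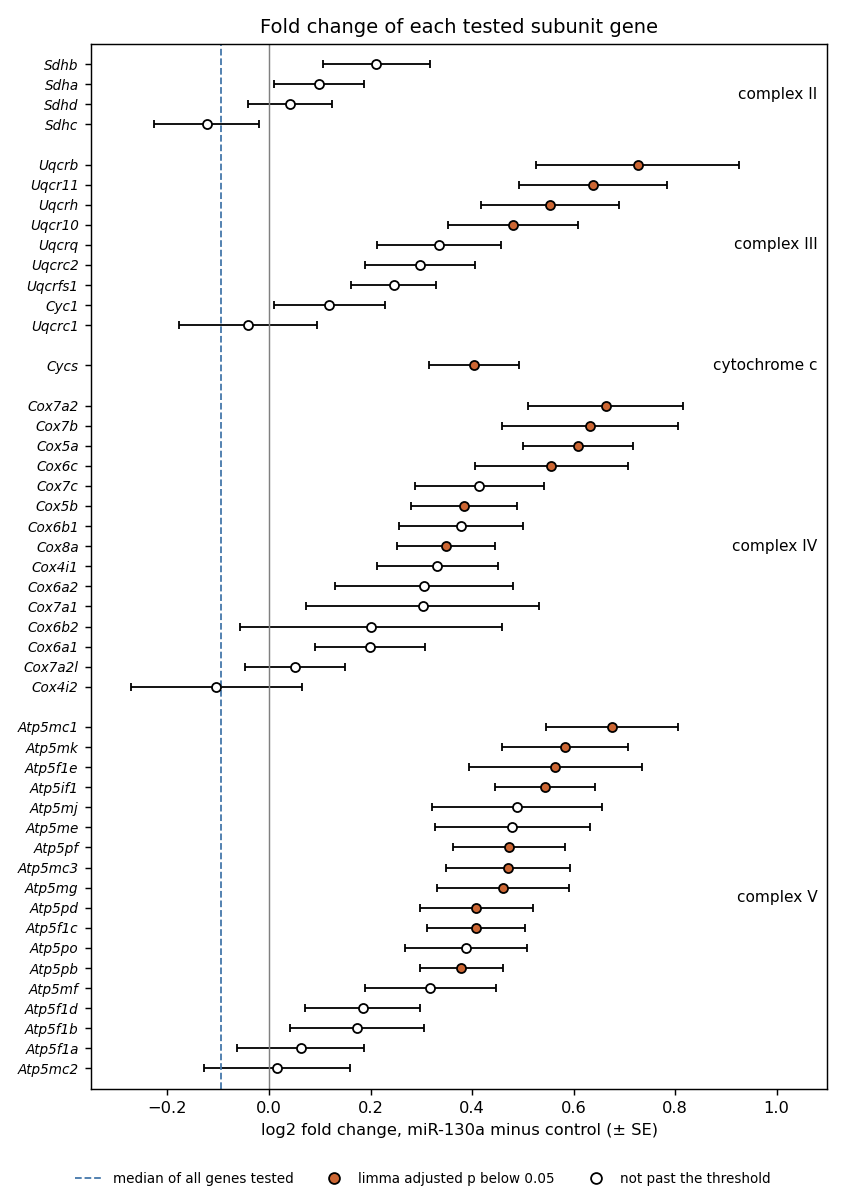
Log2 fold change (horizontal axis, miR-130a minus control, on log2(TPM + 1)) of the 47 tested members by complex, with bars of 1 standard error (SE) from limma and filled circles for adjusted p below 0.05. The 21 filled circles all lie to the right of 0 and none belongs to complex II, and the dashed line marks the median of all tested genes at −0.095.

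The count of 21 depended on single libraries. It was 12, 12, 15, 11 and 27 without control libraries 3, 4, 5, 7 and 9, and 9, 11, 14, 14 and 21 without miR-130a libraries 13, 14, 15, 17 and 18. Leaving out both control libraries 7 and 9 gave 27, of which 20 were among the 21. The mean correlation with the other libraries of its group, over all tested genes, was 0.934 for control library 9 and 0.955 to 0.971 for the other 9 libraries. Rescaling moved the whole table: 866 genes rose and 1198 fell with median-ratio scaling, and 1071 rose and 1046 fell after quantile normalization, against 343 and 1767 as deposited. The number of members that rose was then 23 and 28, with 0 lower in each case. The 9 members Uqcr11, Cycs, Cox5a, Cox7a2, Atp5if1, Atp5mc1, Atp5mk, Atp5pb and Atp5pf were past the threshold under all 22 alternative settings. Uqcrh and Atp5f1c missed it without miR-130a library 13 (adjusted p = 0.0550 and 0.0533 in limma), and Uqcrh also with no filter on low values (adjusted p = 0.0607). Each of the remaining 10 missed it in 6 to 8 of the 10 fits that left out 1 library, and also with no filter on low values. Atp5f1e missed it in 12 of the 22 settings, among them median-ratio scaling.

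Other values moved with the groups. Excitatory neuron markers were present (Slc17a7 at 750 to 1501 TPM and Tbr1 at 47.1 to 93.4 TPM over the 10 libraries), and Slc17a7 and Tbr1 were lowest in control library 9. The summed level of 6 microglial markers was 593 to 881 TPM in the controls and 301 to 385 TPM with miR-130a, and 5 of the 6 fell. The summed endothelial markers were 168 to 189 TPM in the controls and 114 to 149 TPM with miR-130a, with 5 of 6 lower. The 6 markers of inhibitory neurons summed to 893 to 1135 TPM and 1254 to 1640 TPM, and 2 of them, Sst and Vip, rose. Most of the gap in this sum was Sst, with means of 645 TPM in the controls and 1065 TPM with miR-130a. The other 4, Gad1, Gad2, Slc32a1 and Pvalb, did not pass the test, and their groups overlapped. The markers shared by all neurons overlapped, at 3022 to 4449 TPM and 3885 to 4703 TPM, and 0 of 6 changed (1 higher at an unadjusted p under 0.05 in limma). In the lists for excitatory neurons, astrocytes, oligodendrocytes, their precursors and blood 0 genes passed the test, and in that for striatum 1 of 6 fell. At an unadjusted p under 0.05 in limma 1 excitatory marker was higher and 0 blood markers differed. At the same level 3 astrocyte, 2 oligodendrocyte and 3 precursor markers were lower. The medians of these glial lists were −0.27, −0.31 and −0.34, against −0.095 over all tested genes. In bulk tissue a change in the number of cells of a type and a change in RNA per cell cannot be told apart, and the part of these cell markers in the members' values was not tested.

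The microRNA that the AAV was designed to overexpress is shown first. A match to its seed is the sequence that would let this microRNA pair with a member's transcript. Its mature form, from RefSeq (build GRCm38.p6, chr2:84741116-84741137, minus strand), has the seed, bases 2 to 8, in capitals. The lines after it are the matches found in the longest 3′ UTR that the GENCODE annotation of build GRCm38 gives each tested member, with the matched letters in capitals: TTGCACT, the reverse complement of the seed, or TGCACTA, which lacks the match to base 8 and ends in A.
miR-130a-3p: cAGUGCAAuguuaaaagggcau
Cycs: tgtatatctgTGCACTAcacttgaagg
Cox5b: agattagccaTTGCACTggctcctccc
Atp5mk: cagaatggttTTGCACTtgggagtgtt
Cox6b2: aaatatgaccTTGCACTtgagcgctgc
Matches were thus found in 4 of the 47 tested members (8.51%), against 2092 of 13113 other tested protein-coding genes (16.0%). The members' 3′ UTRs were short, with a median of 203 nt against 1232 nt. The match began at base 1309 of a 2674-nt 3′ UTR in Cycs, base 60 of 372 nt in Cox5b, base 379 of 2494 nt in Atp5mk and base 40 of 167 nt in Cox6b2. For Atp5mk that 3′ UTR belongs to a longer transcript than the 352-nt one taken for its coding length. The levels here are per gene and do not tell such transcripts apart. Of these genes Cycs, Cox5b and Atp5mk rose with miR-130a and Cox6b2 did not pass the test (log2 fold change 0.20, adjusted p = 0.665).

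In complex II (succinate dehydrogenase) none of the 4 members passed the test, nor an unadjusted p of 0.05 in limma. The member of lowest p was Sdhb, the iron-sulphur subunit that carries electrons towards ubiquinone. Sdhb was at 193, 198, 173, 201 and 185 TPM in control libraries 3, 4, 5, 7 and 9 and at 247, 202, 219, 258 and 181 TPM in miR-130a libraries 13, 14, 15, 17 and 18. The groups overlapped, with miR-130a libraries 13 and 17 highest and control library 5 lowest (log2 fold change 0.21 ± 0.11 SE, adjusted p = 0.216). Sdha, the flavoprotein that oxidises succinate, had a log2 fold change of 0.10 (adjusted p = 0.512). The membrane anchors Sdhc and Sdhd had −0.12 (adjusted p = 0.484) and 0.04 (adjusted p = 0.797). The median of the 4 was 0.07. The summed TPM of complex II was 653 ± 34.5 (SD, n = 5) in the controls and 694 ± 54.8 (n = 5) with miR-130a, with overlapping ranges.

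In complex III (the cytochrome bc1 complex) the 4 members that rose were all among the 5 small supernumerary subunits, which surround the catalytic core without redox centres of their own. With control AAV Uqcr11 had 568, 518, 359, 551 and 584 TPM, and with miR-130a 916, 736, 762, 909 and 667 TPM. All 5 miR-130a libraries exceeded all controls for Uqcr11, and control library 5 lay well under the other controls (log2 fold change 0.64 ± 0.15 SE, adjusted p = 0.0150). Uqcrb measured 183, 114, 102, 166 and 207 TPM in the 5 controls against 239, 262, 319.8, 197 and 230.5 TPM in the 5 miR-130a libraries. For Uqcrb the groups met, since miR-130a library 17 lay below control library 9 (log2 fold change 0.73 ± 0.20 SE, adjusted p = 0.0336). Uqcrh was at 442, 407, 348, 460.4 and 599.97 TPM in control libraries 3, 4, 5, 7 and 9 and at 692, 614, 644, 743 and 582 TPM in miR-130a libraries 13, 14, 15, 17 and 18. For Uqcrh, the hinge protein next to cytochrome c1, the groups overlapped, because miR-130a library 18 lay below control library 9 (log2 fold change 0.55 ± 0.14 SE, adjusted p = 0.0203). The levels of Uqcr10 were 546, 539, 388, 579 and 631 TPM in the controls, in the same library order, and 842, 705, 716, 768 and 679 TPM with miR-130a. For Uqcr10 the groups did not overlap, with miR-130a library 18 lowest of its group and control library 9 highest of the controls (log2 fold change 0.48 ± 0.13 SE, adjusted p = 0.0288). The remaining small subunit, Uqcrq, had a log2 fold change of 0.33 (adjusted p = 0.0918).

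The catalytic and core subunits of complex III did not pass the test. Cyc1, the cytochrome c1 that hands electrons to cytochrome c, had a log2 fold change of 0.12 (adjusted p = 0.518). Uqcrfs1, the Rieske iron-sulphur protein, had 0.25 (adjusted p = 0.0734). The large core proteins Uqcrc1 and Uqcrc2 had −0.04 (adjusted p = 0.881) and 0.30 (adjusted p = 0.0956). Median log2 fold changes were thus 0.55 over the 5 supernumerary subunits, 0.18 over Cyc1 and Uqcrfs1, and 0.13 over Uqcrc1 and Uqcrc2. The difference between these classes was not tested. The number of complex III members that rose was 6 with median-ratio scaling or quantile normalization and 7 with library weights. That exceeds the 5 supernumerary subunits, so some redox or core proteins were then past the threshold. Complex III summed to 2670 ± 267 TPM in the controls (2228 to 2941) and 3585 ± 325 TPM with miR-130a (3170 to 3930), a ratio of 1.34 with no overlap. The count of 4 was 2 without control library 4 or 7, 1 without miR-130a library 13, and 2 without miR-130a library 14 or 15, and it was 3 to 5 without any other library.

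Cycs encodes somatic cytochrome c, the small haem protein that shuttles electrons from complex III to complex IV. With control AAV Cycs had 42.8, 41.2, 37.6, 46.6 and 40.3 TPM, and with miR-130a 53.0, 59.9, 60.9, 53.2 and 50.5 TPM. Its 5 miR-130a libraries all exceeded the highest control, library 7 (log2 fold change 0.40 ± 0.09 SE, adjusted p = 0.0123). The mean was 41.7 ± 3.33 TPM (SD, n = 5) in the controls and 55.5 ± 4.61 TPM (n = 5) with miR-130a.

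In complex IV (cytochrome c oxidase) the catalytic centre is made from mitochondrial DNA, and every nuclear member is a supernumerary subunit, a restricted isoform or an associated factor. Of the 10 ubiquitous supernumerary subunits 6 rose. Cox5a measured 281, 339.8, 263, 324 and 313 TPM in the 5 controls against 536, 445, 434, 515 and 397 TPM in the 5 miR-130a libraries. Cox5a, a subunit on the matrix side, had the lowest p in complex IV, and its lowest miR-130a library stood above its highest control (log2 fold change 0.61 ± 0.11 SE, adjusted p = 0.00492). Cox5b was at 358, 373, 326, 389 and 421 TPM in control libraries 3, 4, 5, 7 and 9 and at 548, 472, 434, 551 and 437 TPM in miR-130a libraries 13, 14, 15, 17 and 18. Cox5b, the zinc-binding matrix subunit, was higher in every miR-130a library than in any control (log2 fold change 0.38 ± 0.10 SE, adjusted p = 0.0316). The levels of Cox7a2 were 265.8, 243.9, 180.0, 260.3 and 362.8 TPM in the controls, in the same library order, and 410.3, 439.5, 406.4, 415.6 and 363.2 TPM with miR-130a. For Cox7a2, the widely expressed form of subunit 7a, the groups did not overlap, with miR-130a library 18 lowest of its group and control library 9 highest of the controls (log2 fold change 0.66 ± 0.15 SE, adjusted p = 0.0153). With control AAV Cox7b had 118, 98.9, 149, 100.2 and 137 TPM, and with miR-130a 173, 184, 223, 128 and 238 TPM. For Cox7b the groups overlapped, because miR-130a library 17 lay below control library 5 (log2 fold change 0.63 ± 0.17 SE, adjusted p = 0.0331). Cox6c measured 852, 769.6, 549.9, 861 and 1081 TPM in the 5 controls against 1219, 1188, 1215, 1186 and 1107 TPM in the 5 miR-130a libraries. For Cox6c the groups did not overlap, with miR-130a library 18 lowest of its group and control library 9 highest of the controls (log2 fold change 0.56 ± 0.15 SE, adjusted p = 0.0310). Cox8a was at 1143, 1174, 1049, 1239 and 1249 TPM in control libraries 3, 4, 5, 7 and 9 and at 1705, 1556, 1487, 1355 and 1365 TPM in miR-130a libraries 13, 14, 15, 17 and 18. For Cox8a the groups did not overlap, with miR-130a library 17 lowest of its group and control library 9 highest of the controls (log2 fold change 0.35 ± 0.10 SE, adjusted p = 0.0341).

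Among the other ubiquitous subunits, Cox4i1, the nuclear subunit through which ATP is held to inhibit the enzyme, had a log2 fold change of 0.33 (adjusted p = 0.0911) although its groups did not overlap. Cox7c had 0.41 (adjusted p = 0.0517), Cox6b1 had 0.38 (adjusted p = 0.0614) and Cox6a1 had 0.20 (adjusted p = 0.258). The factor Cox7a2l, which joins complexes III and IV into supercomplexes, had 0.05 (adjusted p = 0.784). The complex IV members summed to 7047 ± 725 TPM in the controls (5981 to 7979) and 9114 ± 696 TPM with miR-130a (8275 to 9859), a ratio of 1.29. The count of 6 was 2 without control library 3, 4 or 7 or miR-130a library 13 or 14, 3 without miR-130a library 15, and 4 to 8 without any other library.

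Several complex IV subunits have an isoform of more restricted expression, such as those known as the muscle forms, Cox6a2, Cox7a1 and Cox8b, and the lung form, Cox4i2. These names do not mean that the isoforms are absent from brain cells. None of the 4 tested restricted isoforms passed the test, and 0 had an unadjusted p under 0.05 in limma. The levels of Cox4i2 were 6.16, 5.54, 5.24, 5.60 and 6.70 TPM in the controls, in the same library order, and 6.12, 5.66, 3.43, 7.79 and 4.62 TPM with miR-130a. Cox4i2 had a log2 fold change of −0.10 (adjusted p = 0.740), and the value was 0.086 after quantile normalization and 0.027 without miR-130a library 15. As a share of Cox4i1 and Cox4i2 together it was 0.387% to 0.501% in the controls and 0.240% to 0.384% with miR-130a, so that the shares did not overlap. Mean Cox4i1 was 1287 TPM in the controls and 1632 TPM with miR-130a, and mean Cox4i2 was 5.85 and 5.52 TPM. The lower share thus came mainly with the higher level of Cox4i1. Mural cells express Cox4i2, and 6 mural markers summed to 169 to 212 TPM in the controls and 113 to 152 TPM with miR-130a. Of these 3 of 6 were lower, and Vtn was most of the sum, at means of 128 and 73.6 TPM. Rgs5 had a log2 fold change of 0.02. The part of mural cells in the share was not tested.

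With control AAV Cox6a2 had 11.2, 16.8, 13.4, 16.5 and 20.2 TPM, and with miR-130a 26.9, 14.8, 17.9, 20.8 and 17.4 TPM. Cox6a2 did not separate the groups (log2 fold change 0.31 ± 0.18 SE, adjusted p = 0.285), and its mean share of the Cox6a pair was 1.22% in the controls and 1.33% with miR-130a. Cox7a1 measured 5.67, 11.2, 5.91, 12.1 and 7.23 TPM in the 5 controls against 10.4, 11.9, 8.21, 14.4 and 7.21 TPM in the 5 miR-130a libraries. Cox7a1 also overlapped (log2 fold change 0.30 ± 0.23 SE, adjusted p = 0.429), at 3.21% and 2.48% of the Cox7a pair. The testis form Cox6b2 had a log2 fold change of 0.20 (adjusted p = 0.665). Cox8b was not tested because its mean was under 1 TPM: it was listed at 0 in control libraries 3, 5, 7 and 9 and at 1.23 TPM in control library 4, and at 0, 1.16, 3.15, 0 and 1.12 TPM in miR-130a libraries 13, 14, 15, 17 and 18. Cox8c was listed at 0 in all 10 libraries and Cox7b2 reached at most 1.79 TPM. The other untested members were an entry named as a pseudogene, Cox5b-ps, and a second identifier of Atp5po listed at 0 throughout.

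In complex V (ATP synthase) 10 of 18 members rose, namely 2 of 3 in the rotor, 2 of 3 c-ring genes, 3 of 4 in the peripheral stalk, 2 of 5 supernumerary membrane subunits and the inhibitor. Atp5if1 was at 558, 533, 461, 525 and 603 TPM in control libraries 3, 4, 5, 7 and 9 and at 861, 777, 817, 775 and 677 TPM in miR-130a libraries 13, 14, 15, 17 and 18. Atp5if1, the inhibitor that blocks ATP hydrolysis when the proton gradient collapses, separated the groups fully and had the lowest p in complex V (log2 fold change 0.54 ± 0.10 SE, adjusted p = 0.00508). The levels of Atp5mc1 were 358, 356, 299.6, 359 and 369 TPM in the controls, in the same library order, and 642, 530.1, 548, 679.9 and 416 TPM with miR-130a. Atp5mc1 is 1 of 3 genes that encode an identical c-ring subunit with different import sequences, and miR-130a library 18 lay nearest to the controls (log2 fold change 0.67 ± 0.13 SE, adjusted p = 0.00669). With control AAV Atp5mk had 1238, 1232, 819, 1176 and 1209.9 TPM, and with miR-130a 1853, 1668, 1683, 1676 and 1536 TPM. For Atp5mk, a small membrane subunit found where synthase dimers form, the groups did not overlap, with miR-130a library 18 lowest of its group and control library 3 highest of the controls (log2 fold change 0.58 ± 0.12 SE, adjusted p = 0.0107). Atp5pb measured 187, 204, 219, 195 and 188 TPM in the 5 controls against 275, 256, 277, 249 and 234 TPM in the 5 miR-130a libraries. Atp5pb, the b subunit of the peripheral stalk that holds the head still, was higher in every miR-130a library than in any control (log2 fold change 0.38 ± 0.08 SE, adjusted p = 0.0118). Atp5pf was at 235.5, 273.4, 213.1, 258.5 and 301.8 TPM in control libraries 3, 4, 5, 7 and 9 and at 350.5, 356.7, 386.0, 380.5 and 301.8 TPM in miR-130a libraries 13, 14, 15, 17 and 18. For Atp5pf, another stalk subunit, the groups overlapped, because miR-130a library 18 lay below control library 9 (log2 fold change 0.47 ± 0.11 SE, adjusted p = 0.0159). The levels of Atp5f1c were 257, 318, 315, 291 and 276 TPM in the controls, in the same library order, and 421, 367, 379, 429.5 and 338 TPM with miR-130a. For Atp5f1c, the gamma shaft that turns inside the head, the groups did not overlap, with miR-130a library 18 lowest of its group and control library 4 highest of the controls (log2 fold change 0.41 ± 0.10 SE, adjusted p = 0.0177).

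The other 4 complex V members that rose were Atp5mc3 (log2 fold change 0.47, adjusted p = 0.0256), Atp5pd of the stalk (0.41, adjusted p = 0.0325), Atp5mg of the membrane part (0.46, adjusted p = 0.0368) and Atp5f1e of the rotor (0.56, adjusted p = 0.0483). The 2 subunits of the catalytic head did not pass the test. Atp5f1b, the beta subunit that makes ATP, had a log2 fold change of 0.17 (adjusted p = 0.430), and its partner Atp5f1a, the alpha subunit, had 0.06 (adjusted p = 0.796). Atp5f1d of the rotor had 0.18 (adjusted p = 0.319). Among the rest, Atp5po (0.39, adjusted p = 0.0540) and Atp5mj (0.49, adjusted p = 0.0774) missed the threshold although their groups did not overlap. Atp5me had 0.48 (adjusted p = 0.0596) and Atp5mf 0.32 (adjusted p = 0.128). Complex V summed to 8743 ± 639 TPM in the controls (7717 to 9323) and 11629 ± 1129 TPM with miR-130a (10134 to 12884), a ratio of 1.33. The count of 10 was 6 without control library 3, 5 or 7 or miR-130a library 14 or 17, 5 without miR-130a library 13, and 7 to 13 without any other library.

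Of the 3 c-ring genes, Atp5mc1 and Atp5mc3 rose and Atp5mc2 had a log2 fold change of 0.02 (adjusted p = 0.959). Atp5mc1 supplied 34.6% to 38.9% of the summed TPM of the trio in the controls and 38.1% to 42.2% with miR-130a. Atp5mc2 supplied 1.66% to 2.78% and 1.16% to 1.69%. Atp5mc3 remained the main source in both groups, at a mean of 60.8% and 57.9%. The shares of Atp5mc1 and Atp5mc2 overlapped between the groups, and no test was made of them.

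**Figure D2:**
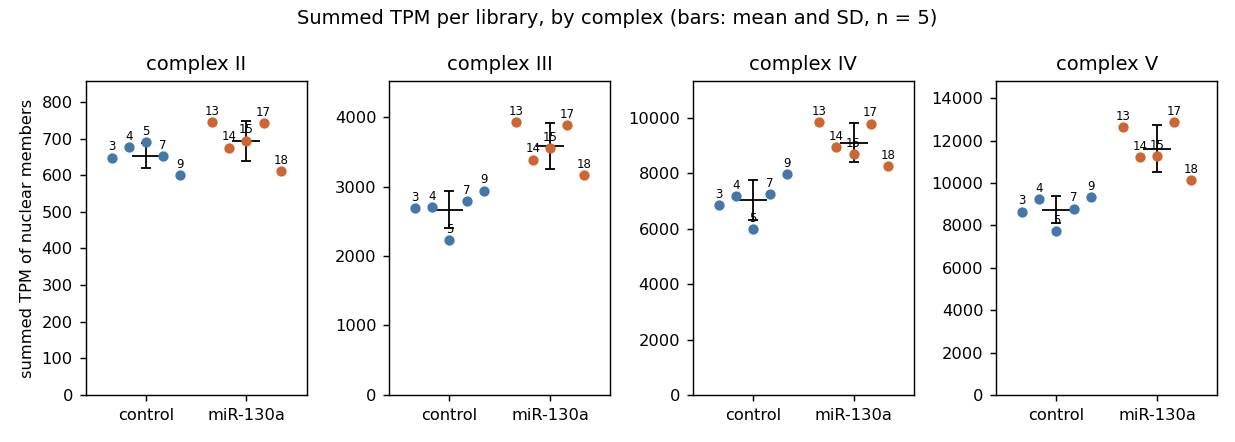
Summed TPM of the nuclear members of complexes II, III, IV and V (vertical axes, each from 0) in each library, with the library number beside each point and bars for the mean and SD of 5 libraries. The miR-130a libraries lie above all controls for complexes III, IV and V, from 3170, 8275 and 10134 TPM upwards, and the groups overlap for complex II.

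Over all 52 members the sum was 1.92% ± 0.157 (SD, n = 5) of all TPM in the controls and 2.51% ± 0.219 (n = 5) with miR-130a, a ratio of 1.31. Within each group the extreme values fell mostly in a few libraries. Control library 5 had the lowest control value for 30 of the 47 tested members and control library 9 the highest for 25. Among the miR-130a libraries, library 18 had the lowest value for 31, and libraries 17 and 13 the highest for 22 and 16.

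**Figure D3:**
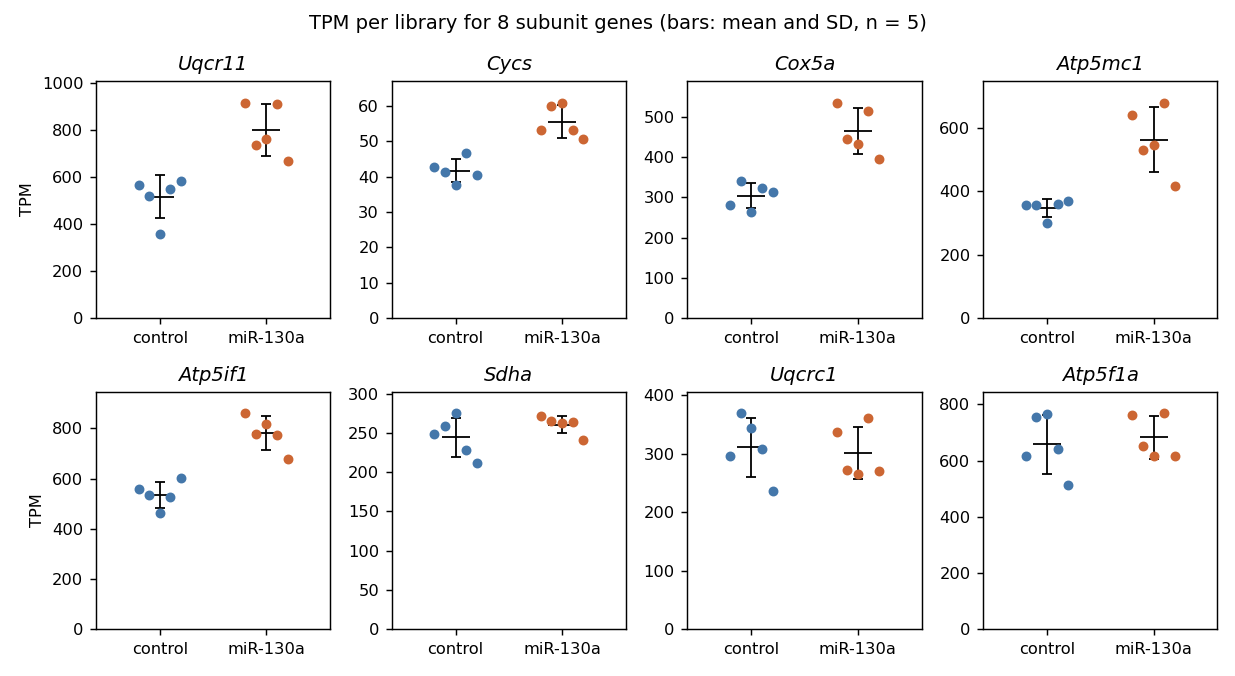
TPM in each library (points, left to right in the order of library numbers) for 8 members, with bars for the mean and SD of 5 libraries per group and vertical axes from 0. Uqcr11, Cycs, Cox5a, Atp5mc1 and Atp5if1 separate the groups, while for Sdha, Uqcrc1 and Atp5f1a, which were picked after their values were seen, the groups overlap.

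Fold changes were set beside coding length, a comparison chosen after the values were seen. Lengths came from the GENCODE annotation, as the transcript with the longest coding part. Of the members with a coding part under 300 nt, 9 of 17 rose, with a median log2 fold change of 0.48, and of the other tested genes of that length 13 of 232 rose (5.60%), with a median of 0.10. From 300 to 600 nt, 10 of 19 members rose (median 0.38), against 112 of 1374 other genes (8.15%, median 0.02). From 600 to 900 nt, 2 of 5 members rose, against 54 of 1836 other genes (2.94%). From 900 to 1500 nt, 0 of 3 members rose (median 0.12), against 46 of 3653 other genes (1.26%, median −0.11). From 1500 to 3000 nt, 0 of 3 members rose (median 0.10), against 33 of 4200 other genes (0.786%, median −0.15). With so few long genes rising in all, the 0 of 6 long members was near the share among other genes. Across the 47 members coding length on a log2 scale and fold change had a Pearson r of −0.58 and a Spearman rho of −0.62, and across 13153 other tested genes −0.11 and −0.19. These are correlations across genes measured in the same 10 libraries, and genes are not independent replicates.

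**Figure D4:**
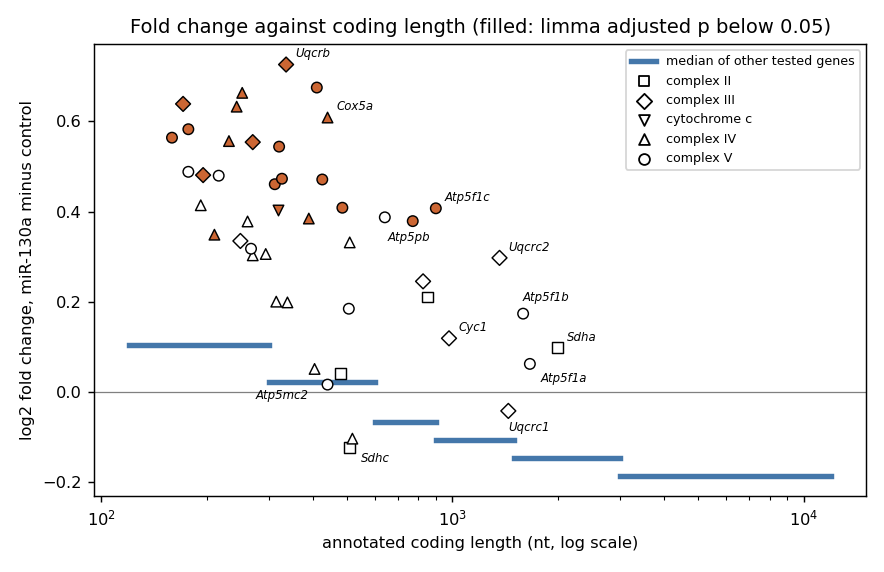
Log2 fold change (vertical axis, miR-130a minus control) of the 47 tested members against annotated coding length in nt (horizontal axis, log scale), with a symbol for each complex and filled symbols for adjusted p below 0.05. Blue bars give the median of the other tested genes in each length range, the lowest and highest ranges being open-ended. Filled symbols reach no further than 900 nt, and the members lie above the blue bar of their range except Sdhc, Cox4i2 and Atp5mc2.

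The balance of short and long members also differed among the controls. The summed TPM of the 36 tested members under 600 nt was 15346, 15569, 12395, 15830 and 17643 in control libraries 3, 4, 5, 7 and 9, and 22423, 20198, 20194, 22463 and 18372 in miR-130a libraries 13, 14, 15, 17 and 18. The groups did not overlap on this sum. The 6 members of 900 nt or more (Cyc1, Uqcrc1, Uqcrc2, Atp5f1a, Atp5f1b and Sdha) summed to 2088 to 3021 TPM in the controls and 2528 to 3137 TPM with miR-130a, which overlapped. The ratio of the short to the long sum was 6.45, 5.27, 4.10, 6.35 and 8.45 in the controls and 7.24, 7.60, 7.89, 7.16 and 7.27 with miR-130a, so that control library 9 lay above every miR-130a library and control library 5 below all others. Control library 9 had the lowest control value for all 6 long members, and control library 5 had the lowest for 29 of the 36 short ones. Other nuclear protein-coding genes under 600 nt held 16.7% to 21.2% of TPM in the controls and 17.8% to 20.3% with miR-130a, which overlapped. The part of length in the members' differences was not tested.

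Reads from near-identical processed copies of members elsewhere in the genome may be shared between entries in the authors' counting, so that values of such members are uncertain. Among the deposited entries 14 non-coding ones carried a member's name as a pseudogene, and the highest level among them was 0.43 TPM.

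The subunits made from mitochondrial DNA are the partners of these members. Their levels are uncertain because mt-Atp8 and mt-Atp6 overlap and copies of mitochondrial sequence lie in the nuclear genome. Of 6 such subunits of complexes III to V, 2 rose. mt-Cytb, the cytochrome b of complex III, was at 5536 to 8505 TPM in the controls and 7938 to 10982 TPM with miR-130a (log2 fold change 0.49, adjusted p = 0.0475). mt-Co2, a catalytic subunit of complex IV, was at 81.2 to 237 TPM and 169 to 579 TPM (log2 fold change 1.28, adjusted p = 0.0416). These levels were far below those of mt-Co1 of the same complex, at 28807 to 39822 TPM and 30605 to 38921 TPM. The mt-Co2 values, and with them its rise, are therefore especially uncertain. mt-Co1 did not pass the test (log2 fold change 0.08, adjusted p = 0.742). All mitochondrially encoded genes together held 14.7% ± 1.48 of TPM in the controls and 18.2% ± 1.96 with miR-130a. The ratio of nuclear to mitochondrial subunit TPM had means of 0.384 and 0.372 in complex III, 0.209 and 0.248 in complex IV, and 0.186 and 0.278 in complex V, with overlapping ranges in each. Each ratio rests mostly on a single mitochondrial gene, which is mt-Cytb alone for complex III. In the control means mt-Co1 made up 32664 of 34250 TPM for complex IV, and mt-Atp8 made up 45370 of 50263 TPM for complex V. The complex III difference, −0.0118, was of either sign when single libraries were left out: it was 0.0143 without control library 4, and 0.00372, 0.000534 and 0.00764 without miR-130a libraries 14, 15 and 18. The complex IV difference was 0.0396, and 0.0241 without control library 5. The complex V mean rested on miR-130a library 17 at 0.644, and without it the difference between the means was 0.000504 in place of 0.0920.

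Complex I subunits, which feed electrons into the same chain, rose in 16 of 36 and fell in 0, with a median log2 fold change of 0.35. Those of lowest p were Ndufs5 (0.56, adjusted p = 0.00710), Ndufa5 (0.62, adjusted p = 0.00954) and Ndufa8 (0.51, adjusted p = 0.00990). Of the assembly factors, 1 of 4 rose for complex II (Sdhaf4, 0.42, adjusted p = 0.0466), 1 of 9 for complex III (Uqcc4, 0.31, adjusted p = 0.0479), 1 of 25 for complex IV (Coa3, 0.35, adjusted p = 0.0217) and 1 of 5 for complex V (Fmc1, 0.53, adjusted p = 0.0328). In each of these lists 0 fell, and at an unadjusted p under 0.05 limma had 2 complex IV factors lower. Of all tested genes 2.19% rose and 11.3% fell, and 1 gene per assembly list is too few to set against those shares.

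Of 5 other tested proteins of the chain, Higd2a, which aids supercomplex assembly, rose (log2 fold change 0.46, adjusted p = 0.0114), as did Ndufa4, now assigned to complex IV (0.56, adjusted p = 0.0196). Of 10 regulators of nuclear respiratory genes none passed the test, and their median was −0.03. At an unadjusted p under 0.05 in limma 2 of them were lower, as were 3457 of all 15680 tested genes. Ppargc1a, the coactivator of mitochondrial biogenesis, was at 5.77 to 9.06 TPM in the controls and 5.80 to 9.53 TPM with miR-130a (log2 fold change 0.08, adjusted p = 0.755). Nrf1, the nuclear respiratory factor, was at 8.95 to 9.97 TPM and 6.51 to 9.53 TPM (log2 fold change −0.30, adjusted p = 0.0966). Of 14 genes used as markers of mitochondrial mass, such as Cs, Vdac1 and Tomm20, none passed the test (3 were higher at an unadjusted p under 0.05 in limma), and their sum was 2238 to 2780 TPM in the controls and 2490 to 2999 TPM with miR-130a. At that unadjusted p 998 of all 15680 tested genes were higher.

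The promoters of the members that rose were searched for motifs of factors known to bind respiratory gene promoters. RefSeq windows from 250 bases before to 50 bases after a start (build GRCm38.p6) were matched for 19 of the 21, giving 21 windows. The motif of NRF1, CGCATGCG, a palindrome, was in 4 windows (19.0%), against 1.87% of all 32851 windows and 3.62% of 11469 windows of other tested genes. The 4 matches are printed because NRF1 is the factor named for its role at such promoters, each on the gene's strand, which is minus for all 4, with the motif in capitals.
Cycs (chr6:50566613-50566640): catgctagctCGCATGCGcgcgcacaaa
Uqcr11 (chr10:80406809-80406836): atcgccttcaCGCATGCGctatacgtct
Atp5pf (chr16:84835106-84835133): ggccagaataCGCATGCGtacagtgcag
Atp5mg (chr9:44920965-44920992): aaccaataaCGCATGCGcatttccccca
The motif began 61 bases before the start in Cycs, 5 in Uqcr11, 147 in Atp5pf and 241 in Atp5mg.

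The ETS motif CCGGAAG, bound by GABPA, was found on either strand in 8 windows (38.1%), against 8.86% of all windows and 15.8% of those of other tested genes. Its match in Atp5pd, shown as an example with the reverse complement of the motif in capitals, lay 38 bases before the start on the minus strand.
Atp5pd (chr11:115419940-115419967): aaggagagaaCTTCCGGcaactctcttc
The YY1 motif AAGATGGC and the ERR motif CAAGGTCA were each in 2 windows (9.52%), against 2.75% and 1.56% of all windows and 4.07% and 1.16% of those of other tested genes. The CRE motif TGACGTCA was in 1 window (4.76%), against 1.79% and 2.93%. Matches to different motifs were counted separately, and Atp5pf and Atp5mg each held matches to 3 of the 5 motifs. A match is a description of the letters and not a measured site. Windows were matched for 36 of the 47 tested members (76.6%), and matches were not counted for members that did not rise. The shares above therefore do not tell the members that rose from those that did not.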

How the data were processed

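Per the labels' protocols, RNA came from punches of 1 mm, was accepted at an integrity number of at least 6.5 and was made into stranded libraries after poly(A) selection. The table deposited by the authors holds TPM (transcript abundance scaled per library); the submitters' processing notes name fastp, HISAT2, RSEM, DESeq2 and build GRCm39, without versions or roles. TPM keeps no depth, so the reads behind a value are unknown, and a change in abundant genes shifts all others. The deposited columns had the same sum within rounding, and no library duplicated another. The authors' columns of group means were not used.

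Values were analysed as log2(TPM + 1) with limma 3.58.1 in R 4.3.3 (lmFit and eBayes with a trend, no covariates, 2-sided), on genes with a mean of at least 1 TPM, with Benjamini-Hochberg adjustment over all of them and a threshold of 0.05. Fold changes on this scale understate the change of low genes. Tested on simulated data for the control and miR-130a comparison over 15680 genes, the fit recovered 182 of 200 changed genes with 11 false calls. The planted steps were 1 or 2 on the log2 scale in either direction, larger than those of the members that rose. Noise was drawn for each gene separately, whereas members varied together across libraries. The simulation thus does not measure power or false calls for the members. Totals and shares are sums of TPM, without a test. Python 3.11.15 with pandas 2.3.3 did the rest.

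All members were reported; values per library were given for members past the threshold, up to the 6 of lowest p in a complex, for the member of lowest p where none passed, and for the restricted isoforms Cox4i2, Cox6a2, Cox7a1 and Cox8b. Members and gene lists were chosen with earlier results of these data known. Gene coordinates are not given because the annotation used here is of build GRCm38 and the deposited values are of GRCm39; lengths and 3′ UTRs come from that older annotation. Alternatives were other pseudocounts, filters, scalings and variance settings, library weights, and leaving out libraries.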

Additional observations from a re-analysis of the deposited data

Results flagged for a closer look

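In 6 of the 124 groups of 5 libraries examined, the highest or lowest library stood apart from the others by more than Dixon's critical value for the gap over the range; chance gives about 1 in 20. Atp5mc1 in control library 5 was at 299.6 TPM, where the other controls lay between 356 and 369 TPM. Atp5mk in the same library was at 819 TPM, where the other controls lay between 1176 and 1238 TPM. Without this library both genes remained past the threshold. Cox7c was lowest in miR-130a library 18, at 683 TPM against 805 to 855 TPM in the others. Cox7a2l was highest in miR-130a library 17, at 372 TPM against 264 to 293 TPM. The ratio of nuclear to mitochondrial subunits of complex V was highest in miR-130a library 17, at 0.644 against 0.150 to 0.292, and mt-Atp8 was at 15934 TPM there and at 37929 to 65798 TPM in the other miR-130a libraries. Cox8b held 0.105% of the Cox8a and Cox8b sum in control library 4 and was listed at 0 in the other controls.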

How the results depend on the processing

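Of the 21 members that rose, 9 stayed past the threshold in every fit that left out 1 library and 12 missed it in at least 1. The number that rose ranged from 9 to 27 over those fits, and by complex from 1 to 5 in complex III, 2 to 8 in complex IV and 5 to 13 in complex V. With no filter on low values, which raised the number of genes tested to 36601, it was 10, with 1 in complex III, 2 in complex IV and 6 in complex V. It was 31 with library weights, where complex III had 7. No member fell under any of the 22 alternatives. The log2 fold change of Cox4i2 was −0.22 to 0.027 over single libraries left out, turning positive without miR-130a library 15, and was 0.086 under quantile normalization; the cause was not tested. The gap between the group means of summed TPM was 97.5 for complex II with median-ratio scaling (40.6 as deposited). Rescaled without mitochondrially encoded genes it was 1246 for complex III (915 as deposited) and 2867 for complex IV (2068 as deposited). These 3 shifts follow from the rescaling itself, which divides each library's sum by its factor. Alternatives for shares and totals were chosen after seeing the data. No paired analysis was possible because the groups share no library numbers.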
